A study of Mus musculus with 8 samples.

Results

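Replicate 3 of each of 2 mouse tumour cell lines, EHE6 and EHE17, was compared with replicates 1 and 2 of the same line. The comparison used 6 of the 8 bulk RNA-seq libraries of a series on epithelioid hemangioendothelioma (EHE) lines. The remaining line, EHE26, has 2 libraries and no replicate 3, and stayed out of the comparison. The 6 libraries were picked because replicate 3 of both lines had already been seen to stand apart in these same counts, so the shifts between replicate 3 and the others are described here without a test. The difference of the shift between the lines was tested, but it rests on the same replicate 3 libraries, 1 a line, that were chosen for standing apart, so its adjusted p-values compare these libraries and are not evidence about the lines. The labels give each library's line and its replicate number and call all of them polyA RNA from an EHE cell line. Genotype, treatment, passage, culture date, host strain and sex are not stated in the labels, nor whether a line is a single clone or whether replicates are separate cultures, so the spread between replicates may be technical.

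EHE is a vascular sarcoma whose cells carry endothelial features, and most human cases hold a fusion of WWTR1, which encodes the Hippo effector TAZ, with CAMTA1. The gene counts do not separate fused from normal transcripts. A dividing cell switches on its cell cycle genes in waves. E2F factors drive the G1/S wave, which makes the enzymes of DNA replication, and the MuvB complex with B-MYB and FOXM1 drives the G2/M wave, which makes the machinery of mitosis. In quiescent cells the DREAM complex, built on MuvB with the pocket proteins p107 and p130, holds both waves down. Endothelial identity rests on ETS and SOX factors such as ERG and SOX18, on VEGF and Tie receptors, and on junctions built around VE-cadherin.

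Library totals lay between 69366708 and 96237665 counts in replicates 1 and 2 and were 44620965 and 48521022 counts in replicate 3 of EHE6 and EHE17. At an equal depth of 44620965 counts, replicates 1 and 2 held a read for 23269 to 24329 genes, and replicate 3 for 20066 genes in EHE6 and 20593 in EHE17. Counts on mitochondrially encoded genes made up 1.39% to 1.75% of replicates 1 and 2 and 0.853% and 0.723% of the replicate 3 libraries. A first principal component of log2 CPM, the count scaled to the size of the library, holding 57.5% of the variance, placed replicate 3 at 189.7 and 102.7 and the other 4 libraries between -82.0 and -66.8. The second, holding 22.7%, set the replicate 3 libraries apart from each other, at 84.6 in EHE6 and -125.7 in EHE17. The other 4 lay between -20.9 and 40.3 on it. The rank correlation across genes of EHE6 replicate 3 was 0.922 with EHE17 replicate 3 and 0.895 and 0.889 with the replicates of its own line, so the EHE6 library ranked its genes more like the other replicate 3 library than like its own line. EHE17 replicate 3 ranked its genes most like EHE17 replicates 1 and 2, at 0.938 and 0.930. A closer rank to the other line was not confined to replicate 3. EHE17 replicate 1 was at 0.973 with EHE6 replicate 2 and at 0.970 with EHE17 replicate 2.

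A set of 4 genes that separate the lines was looked at in replicate 3. Hoxb7, a trunk patterning factor, was at 0.679, 0.476 and 0.433 CPM in EHE6 replicates 1, 2 and 3 and at 28.3, 34.5 and 42.4 CPM in the same replicates of EHE17. Ltbp1, which encodes a TGF-beta binding protein of the matrix, was at 108, 154 and 177 CPM in EHE6 and at 6.91, 4.82 and 9.17 CPM in EHE17. The Y-linked helicase gene Ddx3y was at 66.1, 99.9 and 44.5 CPM in EHE6 and at 1.29, 0.566 and 0.102 CPM in EHE17. On these first 3 genes each replicate 3 library lay with the line of its label. Xist, the RNA of the inactive X chromosome, was at 18.6, 13.9 and 4.09 CPM in EHE6 and 878, 182 and 322 CPM in EHE17, again apart by line. Other genes that differ between the lines in replicates 1 and 2 did not keep that order, among them Slc38a4 and Dlk1, whose values are given with their groups. Values per library are given in the same order, replicates 1, 2 and 3, throughout.

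The endothelial label was borne out by all 8 defining endothelial markers, including Pecam1, Cdh5, Erg and Kdr, none of which was at 0 in any library. Their summed level was 9736 and 11325 CPM in EHE6 replicates 1 and 2 and 2735 CPM in replicate 3, and it was 8527 and 9242 CPM in EHE17 replicates 1 and 2 and 5794 CPM in replicate 3. Transcripts of other tissues were present at low levels in all 4 libraries numbered 1 or 2. The 4 kidney markers Umod, Slc12a1, Lrp2 and Pax8 summed to 5.69 and 27.4 CPM in EHE6 and to 24.4 and 8.01 CPM in EHE17 there. In replicate 3 all 4 were at 0 in EHE6, and in EHE17 the sum was 0.142 CPM with 2 of the 4 at 0. The 4 pigment markers Rpe65, Tyrp1, Pmel and Dct summed to 23.7 to 50.03 CPM in replicates 1 and 2 and to 0.715 and 0.69 CPM in replicate 3, where Rpe65, Tyrp1 and Dct were at 0 in both lines. The 4 epithelial markers summed to 18.9 to 35.2 CPM in replicates 1 and 2, to 92.4 CPM in EHE6 replicate 3, where Krt18 alone gave 91.9 CPM and Epcam and Cdh1 were at 0, and to 0.812 CPM in EHE17 replicate 3. The 3 neural markers summed to 14.2 to 24.5 CPM in replicates 1 and 2 and to 3.99 and 0.507 CPM in replicate 3. These transcripts moved with the contrast, and what they contribute to the other shifts was not tested. Leukocyte markers summed to 17.9 to 29.6 CPM in replicates 1 and 2 and to 27.6 and 68.4 CPM in replicate 3. Mural markers summed to 675 and 277 CPM in EHE6 replicates 1 and 2 and to 205 CPM in replicate 3, with 18.1, 60.7 and 7.51 CPM in EHE17. Fibroblast markers summed to 26.2 and 38.2 CPM in EHE6 replicates 1 and 2 and to 263 CPM in replicate 3, with 54.4, 54.6 and 11 CPM in EHE17. Pdgfra alone gave 260 of the 263 CPM.

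**Figure D1:**
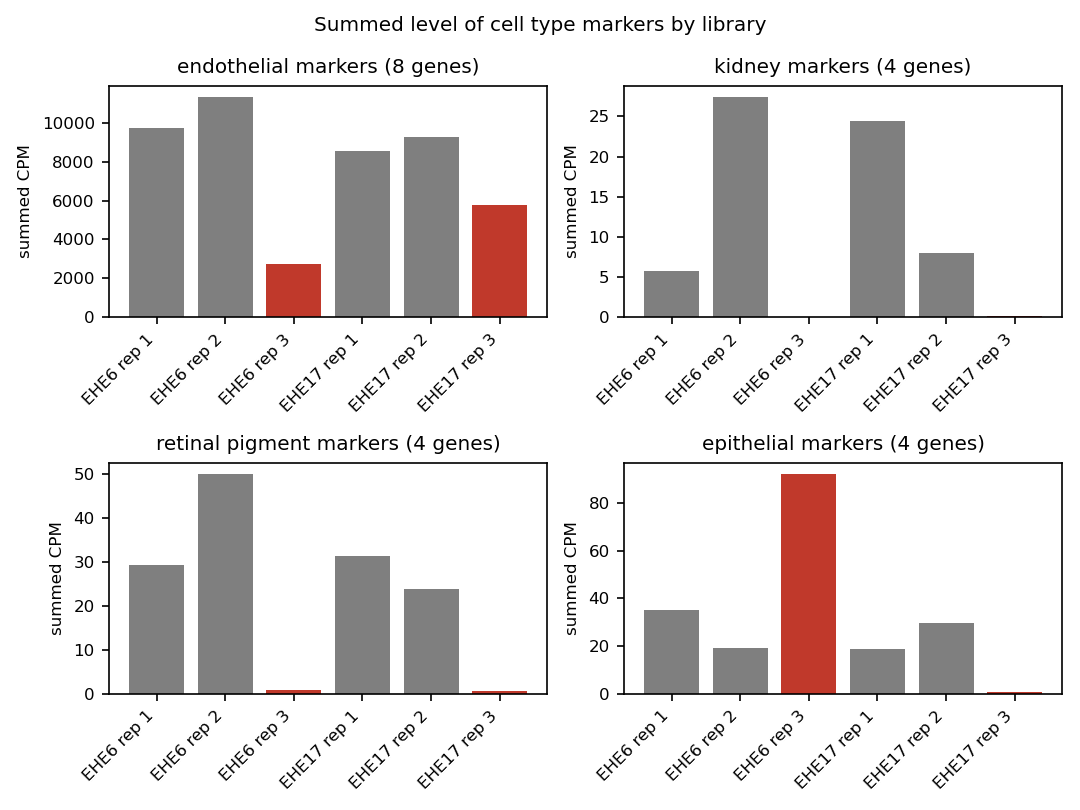
Summed level in CPM (y axis, from 0) of the endothelial, kidney, retinal pigment and epithelial markers in each of the 6 libraries (x axis), 1 bar a library, with replicate 3 in red. Endothelial markers were at 2735 and 5794 CPM in replicate 3 and at 8527 to 11325 CPM in the other libraries. Kidney and pigment markers, at 5.69 to 50.03 CPM in the other libraries, were under 1 CPM in both replicate 3 libraries.

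The shift of a gene is its log2 CPM in replicate 3 minus the mean of replicates 1 and 2 of the same line. A gene was placed in the shared group where the shift was at least 1 (log2 units) in the same direction in both lines and replicate 3 lay outside replicates 1 and 2 in both. Of 18904 genes tested, 944 (4.99%) were shared higher and 2704 (14.3%) shared lower in replicate 3. Many of the shared lower genes were near the detection limit, since 1315 of them (48.6%) had at most 3 counts in both replicate 3 libraries and 844 had none in either. Among the 9429 genes with a mean of at least 10 CPM, 463 (4.91%) were shared higher and 372 (3.95%) shared lower. The list counts given below are to be read beside these shares. The median shift over all genes was -0.10 in EHE6 and -0.11 in EHE17. The shift had a standard deviation across genes of 1.94 in EHE6 and 1.54 in EHE17, against 0.78 and 0.91 for replicate 1 minus replicate 2. Across genes the shifts of the lines had a Pearson correlation of 0.58 and a Spearman correlation of 0.50, given as a description, since genes are not independent and low genes share the detection limit. Transcript GC content and the shift had a Spearman correlation across genes of -0.07 in EHE6 and -0.27 in EHE17, and the median GC content was 46.9% in shared higher, 51.0% in shared lower and 49.7% in all tested genes.

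Cell cycle genes were shared higher in large part. Of 60 genes of G2/M and mitosis, 57 were shared higher and none shared lower, and their median shift was 2.22 in EHE6 and 2.13 in EHE17. In 59 of the 60 both replicate 3 libraries lay above all 4 others, which held for 14.5% of all tested genes. Of 50 genes of G1/S and DNA replication, 33 were shared higher and none shared lower, with medians of 1.40 and 1.62. All 110 passed the low-count filter. These lists were written with earlier results of these data known, and the same contrast chose the comparison, so the counts are a description.

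The promoters of 4 mitotic genes and 2 replication genes are shown to give the letters that the G2/M and G1/S waves are known to use, each as the 100 bases named, 5′ to 3′ on the strand of the gene, from RefSeq on GRCm38.p6, the assembly also called mm10. Capitals mark the cell cycle homology region (CHR, TTTGAA), which MuvB binds, the CCAAT box (CCAAT), which NF-Y binds, and an E2F site, each on either strand.
Cdk1, chr10:69352913-69353012, minus strand: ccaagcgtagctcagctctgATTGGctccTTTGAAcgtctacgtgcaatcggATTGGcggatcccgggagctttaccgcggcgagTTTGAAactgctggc
Cdc20, chr4:118437344-118437443, minus strand: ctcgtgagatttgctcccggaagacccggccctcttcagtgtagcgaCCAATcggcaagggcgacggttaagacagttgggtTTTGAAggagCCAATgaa
Top2a, chr11:99024190-99024289, minus strand: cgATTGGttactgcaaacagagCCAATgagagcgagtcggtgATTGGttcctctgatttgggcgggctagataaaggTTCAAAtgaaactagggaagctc
Ube2c, chr2:164769829-164769928, plus strand: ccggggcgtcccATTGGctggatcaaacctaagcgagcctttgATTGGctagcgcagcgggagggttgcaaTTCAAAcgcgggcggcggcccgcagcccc
Mcm5, chr8:75109300-75109399, plus strand: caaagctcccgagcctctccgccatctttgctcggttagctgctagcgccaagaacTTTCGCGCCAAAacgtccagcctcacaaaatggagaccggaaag
Mcm6, chr1:128359713-128359812, minus strand: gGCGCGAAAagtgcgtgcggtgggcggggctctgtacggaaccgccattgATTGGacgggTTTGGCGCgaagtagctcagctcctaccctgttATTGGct
The windows of the mitotic genes run from 100 bases before the annotated start to the base before it. Those of Mcm5 and Mcm6 run from 209 to 110 and from 107 to 8 bases before it. In Mcm5 a pair of E2F matches, one on each strand, overlap.

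Among promoter windows from 250 bases before to 50 after the start, a CHR was found in 67.3% of the 49 G2/M genes with a window, against 14.7% of the 12484 tested genes with one. A CCAAT box stood in 75.5% of the G2/M windows and 42.4% of those of tested genes, and both motifs in 59.2% and 6.0%. The E2F letters searched were TTTCCCGC, TTTGGCGC, TTTCGCGC and TTTGCCGC. They were found in 42.9% of the 42 G1/S genes with a window, in 6.12% of the 49 G2/M genes and in 4.32% of tested genes. Over the shared higher group, 613 genes had a window, with a CHR in 27.6%, a CCAAT box in 50.9% and E2F letters in 10.8%. Over 1783 shared lower genes the shares were 15.9%, 39.3% and 2.47%. Of all 27025 genes in the promoter table, 20.2% held a CHR, 41.1% a CCAAT box and 2.60% the E2F letters. A match says only that the letters stand there.

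Among genes that drive entry into mitosis, Cdk1, the mitotic kinase, was at 104, 49.4 and 241 CPM in EHE6 and 29.5, 69.5 and 118 CPM in EHE17. Its partner Ccnb1, cyclin B1, was at 53.9, 22.2 and 226 CPM in EHE6 and 18.3, 41.3 and 145 CPM in EHE17, a log2 fold change of 2.43 ± 0.44 (SE) with the line as a block. In both genes replicate 3 was the highest library of its line and the groups did not overlap. Cdc25c, the phosphatase that activates Cdk1, had shifts of 3.28 in EHE6 and 2.27 in EHE17. Foxm1, the transcription factor of the G2/M wave, had 2.27 and 1.85, and Mybl2, which encodes B-MYB, 1.5 and 2.10.

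Ranked by the smaller of the lines' shifts, Nuf2, Sgo1, Spc25 and Anln led the mitotic list. Nuf2, a subunit of the kinetochore complex that holds microtubules, was at 23.2, 12.8 and 133 CPM in EHE6 and 8.77, 11.9 and 72.2 CPM in EHE17 (log2 fold change 2.85 ± 0.30). Spc25, of the same complex, had shifts of 2.60 and 3.27. Sgo1, which protects the cohesion of sister centromeres, was at 12, 6.93 and 65.7 CPM in EHE6 and 5.61, 5.38 and 34.5 CPM in EHE17. In all 3 genes the replicate 3 libraries lay above every other library of both lines. Anln, an actin-binding protein of the cleavage furrow, was at 89.7, 54.6 and 519 CPM in EHE6 and 41.6, 54.9 and 284 CPM in EHE17. Top2a, which untangles DNA before segregation, was at 168, 93.9 and 710.3 CPM in EHE6 and 75.6, 93 and 384 CPM in EHE17, with a log2 fold change of 2.31 ± 0.30. Mki67, the standard marker of cycling cells, was at 135, 79.7 and 389 CPM in EHE6 and 56.3, 60.2 and 227 CPM in EHE17, so replicate 3 lay above both other libraries of its line for each of these genes.

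The 3 mitotic genes outside the shared group were Cdca8, with shifts of 0.93 and 1.74, Pttg1, which encodes securin, with 0.32 and 0.76, and Gtse1, with 0.23 and 1.11. Cdc20, the activator of the anaphase complex, was near the threshold at 1.03 and 1.39. Its values of 115, 48.9 and 152 CPM in EHE6 and 28.6, 98 and 139 CPM in EHE17 show how far replicates 1 and 2 differed from each other. Many mitotic genes were higher in EHE6 replicate 1 than in 2 and higher in EHE17 replicate 2 than in 1. The list median was 40.7, 17.9 and 127 CPM in EHE6 and 15.4, 24.1 and 79.8 CPM in EHE17.

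In the replication list, Prim1, the primase subunit that starts each DNA strand, was at 18.8, 10.3 and 93.7 CPM in EHE6 and 7.09, 8.22 and 49 CPM in EHE17 (log2 fold change 2.68 ± 0.29). E2f8, an E2F factor that represses the G1/S wave, was at 15.3, 11.3 and 83.1 CPM in EHE6 and 7.9, 10.8 and 56.8 CPM in EHE17. For both, replicate 3 lay above the other 4 libraries. Rrm2, a subunit of the enzyme that makes deoxynucleotides, was at 67.2, 39.3 and 230.2 CPM in EHE6 and 25.3, 35 and 142 CPM in EHE17. Gins1, a subunit of the replicative helicase, had shifts of 2.21 and 2.64. Of the MCM helicase genes, Mcm2, Mcm3, Mcm5, Mcm6, Mcm7 and Mcm10 were shared higher, and Mcm4 was not, with 0.59 and 1.54. Mcm5 was at 154, 65.6 and 275 CPM in EHE6 and 44, 99.8 and 188 CPM in EHE17.

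Some G1/S genes did not follow this pattern in both lines. Ccne1, cyclin E1, was at 27.6, 14 and 6.24 CPM in EHE6 and 12.5, 19.4 and 22.3 CPM in EHE17, so replicate 3 was the lowest library in EHE6 and the highest in EHE17. Ccne2 had shifts of 0.25 and 1.86, and Cdc45, a part of the active replicative helicase, 0.37 and 2.16. Cdc25a, the phosphatase that activates cyclin E complexes, had -0.30 and -0.16. No difference of the shift between the lines was called in the G2/M list or the G1/S list by the edgeR quasi-likelihood test of the interaction, Benjamini-Hochberg adjusted over all 18904 genes, against 3.82% of all tested genes. Replicates 1 and 2 differed in many of these genes, and the SE of the difference was 0.57 in Mki67 and 1.18 in Plk1. The lack of a call therefore does not show that the shifts were equal. At an unadjusted p under 0.05 the test found 0 genes in the G2/M list and 4 in the G1/S list, Ccne1, Ccne2, E2f7 and Clspn. DESeq2 called 0 and 1, the latter being Ccne1.

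**Figure D2:**
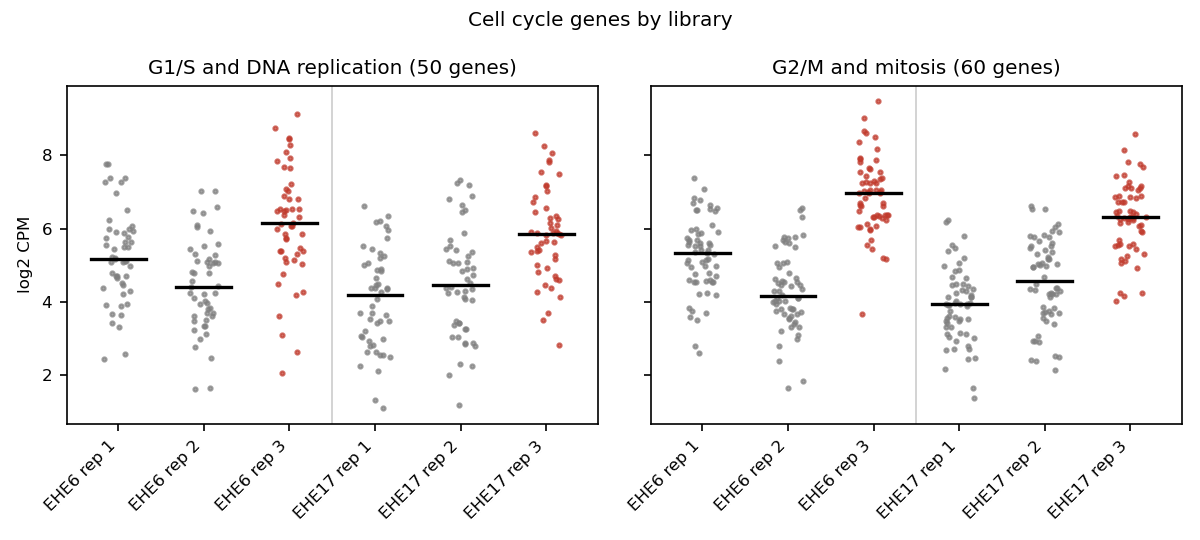
Level in log2 CPM (y axis) of each gene of the G1/S list (left, 50 genes) and of the G2/M list (right, 60 genes) in the 6 libraries (x axis), 1 point a gene, with replicate 3 in red and the list median as a black bar. The G2/M median lay at 127 and 79.8 CPM in the replicate 3 libraries and between 15.4 and 40.7 CPM in the other 4.

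Upstream of the cycle, none of the D-type cyclins was in the shared higher group. Ccnd1 was at 1321, 1545 and 1666 CPM in EHE6 and 1126, 1154 and 1457 CPM in EHE17, shifts of 0.22 and 0.35. Ccnd2 was shared lower at 642, 692 and 138 CPM in EHE6 and 389, 438 and 154 CPM in EHE17 (log2 fold change -1.83 ± 0.32). Myc, a transcription factor of cell growth, was shared lower with -1.14 and -1.21, as was its relative Mycn with -3.71 and -1.33. Ccnd3 had -1.21 and -0.87, and Cdk4 and Cdk6, the kinases of the D cyclins, had shifts between -0.28 and 0.05. In this list of 7, none was shared higher and 3 were shared lower.

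Of 27 CDK inhibitor and quiescence genes, 5 were shared higher and 4 shared lower, with medians of 0.23 and 0.18. The shares over all tested genes were 4.99% and 14.3%, and 4.91% and 3.95% over those with a mean of at least 10 CPM. The INK4 inhibitors of CDK4 and CDK6 split. Cdkn2b, p15, was at 336, 333 and 1.62 CPM in EHE6 and 444, 492 and 89 CPM in EHE17, lower in replicate 3 of both. The shift differed between the lines by 5.29 ± 0.48 (SE) log2 units, EHE17 minus EHE6 (edgeR adjusted p = 0.0128). Cdkn2a, which encodes p16 and ARF, was at 3.91, 4.52 and 0.0217 CPM in EHE6, where replicate 3 held 1 count, and at 8.65, 4.72 and 4.12 CPM in EHE17, a difference of 6.79 ± 1.03 (edgeR adjusted p = 0.0242). Cdkn2c, p18, and Cdkn2d, p19, were shared higher. Cdkn2c was at 13, 7.8 and 86.5 CPM in EHE6 and 9.52, 23.5 and 68.8 CPM in EHE17. Cdkn2d had shifts of 3.34 and 1.75.

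Of the CIP/KIP inhibitors, which bind cyclin E and cyclin A complexes, Cdkn1a (p21) had shifts of -0.66 and 0.07, Cdkn1b (p27) 2.79 and 0.79, and Cdkn1c (p57) -1.64 and -0.35. None was in the shared group. Rbl1, the pocket protein p107, was shared higher at 23.7, 19.2 and 105 CPM in EHE6 and 16.6, 14.6 and 62.3 CPM in EHE17. The MuvB subunits Lin9 and Lin54 were shared higher as well, with 1.04 and 1.49 for Lin9 and 1.63 and 1.6 for Lin54, while Lin37 and Lin52 were not. The antiproliferative gene Btg2 was shared lower at -3.00 and -1.47, and Foxo1, a factor that favours quiescence, at -2.09 and -1.22. Gas1, a growth arrest gene, was at 0 counts in both replicate 3 libraries and under 1 CPM in the other 4. Gas6 moved in opposite directions, at 150.5, 175 and 32.9 CPM in EHE6 and 100, 121 and 312 CPM in EHE17 (difference 3.80 ± 0.48, edgeR adjusted p = 0.0158).

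The endothelial programme was lower in replicate 3 of both lines in part, and in more of its genes in EHE6. Over 99 genes of 4 lists, 24 were shared lower and 5 shared higher, against 14.3% and 4.99% of all tested genes. Among genes with a mean of at least 10 CPM these shares were 3.95% and 4.91%. The median shift of the 99 was -1.91 in EHE6 and -0.52 in EHE17. A shift of at least 1 downward was seen in 60 of the 99 in EHE6, against 27.0% of all tested genes, and in 31 in EHE17, against 21.5%. Upward shifts of that size numbered 17 in EHE6 and 8 in EHE17, against 15.0% and 9.53% of all genes. The shift differed between the lines for 31 of the 99 (edgeR interaction test, adjusted over all genes), 24 of them more positive in EHE17 and 7 more negative, against 2.46% and 1.36% of all genes. In bulk RNA, fewer cells of a type and less RNA per cell cannot be told apart. Jam2, Cldn5, Calcrl, Gata2, Podxl, Cav1, Angpt2 and Vcam1 were picked from these lists after their values were seen.

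Of 16 junction and adhesion genes, 4 were shared lower and 1 shared higher, with medians of -1.11 and -0.47. Cdh5, VE-cadherin, was at 3912, 4853 and 1088 CPM in EHE6 and 3404, 3362 and 1986 CPM in EHE17. Pecam1, the platelet endothelial adhesion molecule, was at 1509, 1645 and 1215 CPM in EHE6 and 1677, 1688 and 1398 CPM in EHE17, the smallest downward move among the junction genes named here. Mcam, an adhesion molecule of the endothelial surface, was shared lower at 1494, 1979 and 81.2 CPM in EHE6 and 582, 481 and 164 CPM in EHE17. Esam, a tight junction molecule, was shared lower at -2.92 and -1.63, and so were Tjp1 at -1.28 and -1.90 and Ocln at -1.13 and -1.37. Jam2, another junctional molecule, was the shared higher gene at 1.12 and 1.07. Cldn5, the main claudin of endothelium, was at 406, 285 and 1.08 CPM in EHE6 and 279.5, 787 and 328 CPM in EHE17. Its replicate 3 value lay within the other EHE17 libraries, and the shift differed between lines by 7.61 ± 1.04 (edgeR adjusted p = 0.0187).

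Of 23 endothelial receptors, 6 were shared lower and 1 shared higher, with medians of -2.05 and -0.57. Kdr, VEGF receptor 2, was at 836, 1035 and 22.8 CPM in EHE6 and 569.7, 684 and 246 CPM in EHE17, lower in both and by more in EHE6 (difference 4.01 ± 0.50, edgeR adjusted p = 0.0155). Flt1, VEGF receptor 1, showed the other order, at 314, 400.1 and 309 CPM in EHE6 and 319, 208 and 41.6 CPM in EHE17, and its difference of -2.45 ± 0.56 did not pass (edgeR adjusted p = 0.0786). Tie1 was at 1230, 1249 and 146 CPM in EHE6 and 877, 1239 and 722 CPM in EHE17, and Tek, the angiopoietin receptor, had shifts of -2.68 and -0.47. Neither Tie receptor passed the test of the difference (edgeR adjusted p = 0.052 and 0.0767). The adhesion receptor gene Adgrl4 had -4.85 and -1.77, the semaphorin receptor Plxnd1 -3.28 and -1.46, and Acvrl1, the BMP receptor ALK1, -1.91 and -1.42. Calcrl, part of the adrenomedullin receptor, was shared higher with 1.18 and 1.14.

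Of 26 endothelial transcription factors, 4 were shared lower and 1 shared higher, with medians of -0.86 and -0.15. The shares were 14.3% and 4.99% over all tested genes, and 3.95% and 4.91% over those with a mean of at least 10 CPM. Erg, an ETS factor central to endothelial identity, was at 402, 329 and 43.2 CPM in EHE6 and 238, 238 and 263 CPM in EHE17, lower in replicate 3 of EHE6 and slightly higher in that of EHE17 (difference 3.22 ± 0.46, edgeR adjusted p = 0.0216). Its relative Fli1 had shifts of -0.75 and -0.02. Sox18 was shared lower at 1313, 1082 and 38.2 CPM in EHE6 and 902, 1574 and 349 CPM in EHE17. Sox17, which marks arteries, was at 14.5, 5.38 and 0.152 CPM in EHE6 and 14.7, 13.8 and 0.974 CPM in EHE17. Bcl6b, a repressor of endothelial cells, had shifts of -1.71 and -1.63, and Klf4, a flow-responsive factor, was shared higher at 1.46 and 2.36. Gata2, a factor of blood and endothelium, was at 21.5, 24.1 and 492 CPM in EHE6 and 32.1, 38 and 54.3 CPM in EHE17 (difference -3.80 ± 0.47, edgeR adjusted p = 0.0154). Gata2 was thus the reverse of Erg in EHE6, with its highest value in replicate 3. In EHE17 both genes were highest in replicate 3.

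Of 34 endothelial surface and secreted genes, 10 were shared lower and 2 shared higher, with medians of -2.85 and -0.72. Vwf, the clotting factor stored in endothelium, was at 17.4, 19.3 and 3.33 CPM in EHE6 and 3.61, 5.93 and 0.67 CPM in EHE17. Gpihbp1, which anchors lipoprotein lipase to capillaries, was at 13.8, 16.9 and 0.303 CPM in EHE6 and 15.9, 66 and 1.62 CPM in EHE17. Esm1, a tip cell product, had shifts of -4.79 and -2.40. All 3 were lower in replicate 3 of both lines with no overlap. In 14 of the 34 genes both replicate 3 libraries lay below all 4 others, which held for 22.4% of all tested genes. Stab2, a scavenger receptor, was under 5 CPM in every library. Emcn, endomucin, was at 442, 375 and 10.5 CPM in EHE6 and 194, 228 and 109 CPM in EHE17 (difference 4.34 ± 0.48, edgeR adjusted p = 0.0131). Podxl, another sialomucin, was shared higher at 81.8, 85.7 and 545 CPM in EHE6 and 38, 29.6 and 159.7 CPM in EHE17, and so was Cav1, the caveolar coat gene, at 1.11 and 1.61. In this list 14 genes were called more positive in EHE17 and 3 more negative. Angpt2, the context-dependent Tie2 ligand, was at 637, 500.4 and 31.9 CPM in EHE6 and 1696, 1658 and 2532 CPM in EHE17, lower in replicate 3 of the first and higher in that of the second (difference 4.75 ± 0.49, edgeR adjusted p = 0.0129). Vcam1, a leukocyte adhesion molecule, went the other way, at 5.52, 7.3 and 59.8 CPM in EHE6 and 13, 14.8 and 2.35 CPM in EHE17 (difference -5.79 ± 0.56, edgeR adjusted p = 0.0128).

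**Figure D3:**
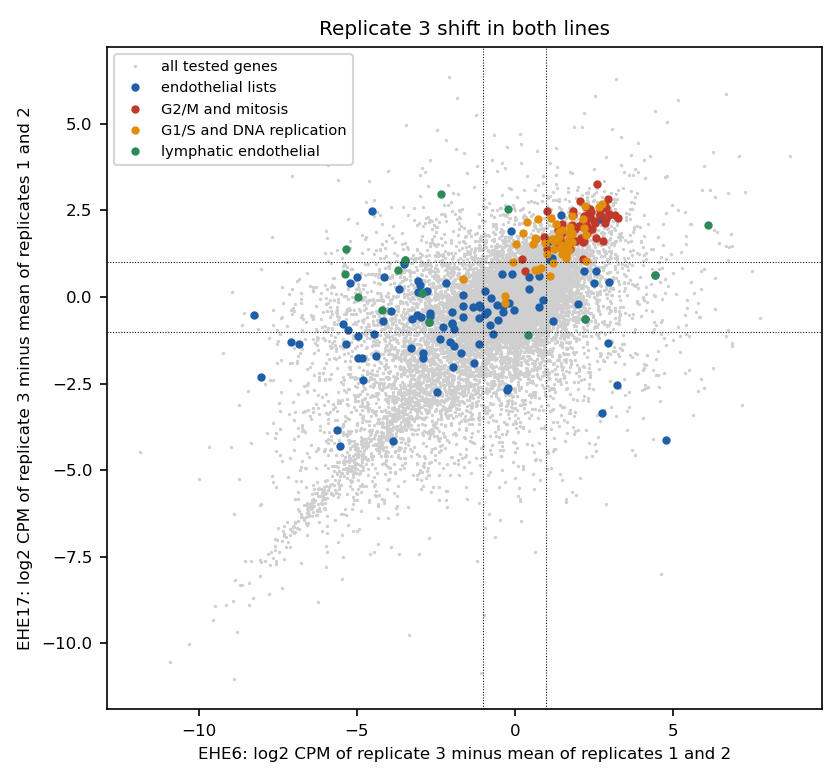
Shift of replicate 3 in EHE6 (x axis) against EHE17 (y axis), both in log2 units, 1 point a gene, for all 18904 tested genes in grey and for the cell cycle, endothelial and lymphatic lists in colour, with dotted lines at -1 and 1. The cell cycle genes lie together in the upper right, and the endothelial genes spread along the EHE6 axis, with medians of -1.91 and -0.52.

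Among lymphatic genes the medians of the lines had opposite signs. Of 14 tested, 1 was shared higher and none shared lower, the medians were -2.84 in EHE6 and 0.65 in EHE17, and 8 were called more positive in EHE17 and 3 more negative, against 2.46% and 1.36% of all genes. Members with the same sign in both lines included Flt4, the lymphatic VEGF receptor, at -2.73 and -0.71, and the transcription factor Maf at -4.19 and -0.38. Prox1, the factor that specifies lymphatic fate, was at 34.6, 50.3 and 3.18 CPM in EHE6 and 221, 113 and 271 CPM in EHE17 (difference 4.43 ± 0.74, edgeR adjusted p = 0.0315). Lyve1, a hyaluronan receptor, was at 4.27, 6.37 and 4.55 CPM in EHE6 and 477, 349.6 and 2379 CPM in EHE17, a difference of 2.75 ± 0.58 that did not pass (edgeR adjusted p = 0.0611). Reln, a secreted lymphatic glycoprotein, had shifts of -5.34 and 1.40, and Itga9, a valve integrin, -4.97 and 0.00. The shared higher gene was Sema3d, a guidance cue, at 0.326, 0.476 and 29.4 CPM in EHE6 and 1.38, 1.56 and 6.29 CPM in EHE17.

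Among 19 Notch and arterial genes, 8 were shared lower and none shared higher, with medians of -2.18 and -1.19. Dll4, the arterial Notch ligand, was at 268, 358 and 3.31 CPM in EHE6 and 234, 340.1 and 50.7 CPM in EHE17. The receptor Notch4 was at 443, 420.5 and 108 CPM in EHE6 and 323, 369 and 61.2 CPM in EHE17, and Notch1 had shifts of -2.07 and -1.21. Hes1, a direct Notch target, was shared lower at -2.37 and -1.19. In each of these 4 genes the 2 replicate 3 libraries lay below the replicates of their own line. Both replicate 3 libraries lay below all 4 others in 8 of the 19 genes, against 22.4% of all tested genes. Heyl, another target, was at 0 in both replicate 3 libraries and under 1 CPM in the others. Hey1 differed between the lines with -2.99 in EHE6 and 0.34 in EHE17 (edgeR adjusted p = 0.0326), as did the ligand Dll1 with -3.57 and 1.86 (edgeR adjusted p = 0.014).

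Mural genes held 8 shared lower and no shared higher members among 16, with medians of -1.34 and -2.09. Abcc9 and Kcnj8, which encode the subunits of the pericyte ATP-sensitive potassium channel and are neighbours in the genome, stood out. Abcc9 was at 55.3, 55.3 and 0.303 CPM in EHE6 and 101, 158 and 0.345 CPM in EHE17 (log2 fold change -8.03 ± 0.49), and Kcnj8 at 79.4, 82.5 and 1.26 CPM in EHE6 and 119.8, 256 and 1.18 CPM in EHE17. Myl9, a smooth muscle light chain, had shifts of -5.04 and -2.87, and Myh11, at 1.25 CPM or less in every library, -2.95 and -5.06. Rgs5, a pericyte marker, went in opposite directions, at 8.3, 9.85 and 189 CPM in EHE6 and 4.42, 4.24 and 0.223 CPM in EHE17 (difference -8.65 ± 0.58, edgeR adjusted p = 0.0128). The mural list had 5 shared lower members without EHE17 replicate 2.

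Fibroblast and mesenchymal genes numbered 2 shared higher and 6 shared lower of 21, with medians of -0.53 and -1.90. S100a4 was shared higher at 0.0815, 0.21 and 5.78 CPM in EHE6 and 0.0995, 0 and 3.17 CPM in EHE17, and Twist1, a mesenchymal factor, at 6.41 and 1.88. Lum and Mfap4, matrix genes of fibroblasts, were at 0 in both replicate 3 libraries and under 3 CPM in the others, and Fap was under 1 CPM throughout. Pdgfra, a PDGF receptor of mesenchymal cells, was at 3.9, 5.17 and 260 CPM in EHE6 and 1.77, 1.74 and 1.16 CPM in EHE17 (difference -6.44 ± 0.54, edgeR adjusted p = 0.0128). Of 26 collagen and basement membrane genes, 4 were shared lower and none shared higher, with medians of -0.63 and -1.06. This share of lower genes is near the 14.3% of all tested genes, many of which were near the detection limit when shared lower. Among genes with a mean of at least 10 CPM it was 3.95%, and the median level of this list lay between 46.0 and 124.5 CPM by library. Nid2, a basement membrane linker, was at 440.5, 561 and 6.63 CPM in EHE6 and 545, 544 and 58.9 CPM in EHE17, and the endothelial laminin chain Lama4 at 748, 829 and 18.1 CPM in EHE6 and 754, 790.5 and 136 CPM in EHE17. Hspg2, perlecan, had shifts of -2.34 and -1.98, and Col1a1 -1.36 and -2.51. The collagen VI genes Col6a1, Col6a2 and Col6a3 had shifts of 6.87, 4.72 and 3.99 in EHE6 and of -1.32, -1.17 and -0.56 in EHE17, and all 3 were called for the difference (edgeR adjusted p = 0.0128, 0.0131 and 0.021).

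The 5 lists of other tissues had the lowest medians of all 36 lists in both lines. In the pigment list 15 of 15 were shared lower, with medians of -6.16 and -4.24. The counts were 10 of 13 for kidney, 13 of 16 for epithelium, 6 of 13 for neural with 2 shared higher, and 4 of 6 for hepatocyte and lung. These are members that passed the low-count filter, out of 15 listed for kidney, 14 for neural and 12 for hepatocyte and lung. A gene at 0 in both replicate 3 libraries could pass only through replicates 1 and 2, where it is high. The filter thus partly fixes these counts and medians, which are a description. Medians were -4.21 and -4.01 for kidney, -3.65 and -3.38 for epithelium, -4.94 and -2.61 for neural and -4.50 and -6.41 for hepatocyte and lung genes. With counts under 3 raised to 3, so that a gene at 0 enters at its bound, the EHE6 medians were -4.99 for pigment, -3.80 for kidney and -2.94 for epithelial genes. Rgr, an opsin of the pigment epithelium, was at 17.9, 26.8 and 0 CPM in EHE6 and 19.9, 17.9 and 0 CPM in EHE17, at least 344-fold lower in replicate 3 of EHE6 and at least 310-fold lower in that of EHE17, taking 3 counts in that library as the limit that a count of 0 allows. The melanin enzyme genes Tyrp1 and Dct had no counts in either replicate 3 library and lay between 6.93 and 17.8 CPM in the others. Slc34a1, a phosphate transporter of the kidney tubule, was at 5.86, 24.6 and 0 CPM in EHE6 and 19, 4.55 and 0 CPM in EHE17. Umod, the product of the thick ascending limb, was at 1.89, 11.3 and 0 CPM in EHE6 and 9.84, 3.05 and 0 CPM in EHE17. Both kidney genes were higher in EHE6 replicate 2 and EHE17 replicate 1 than in EHE6 replicate 1 and EHE17 replicate 2. Epcam, an epithelial adhesion molecule, was at 9.88, 4.93 and 0 CPM in EHE6 and 3.89, 8.31 and 0 CPM in EHE17, and was thus higher in the opposite pair, EHE6 replicate 1 and EHE17 replicate 2. Nkx2-1, a lung and thyroid factor, followed Epcam at 3.59, 2.04 and 0 CPM in EHE6 and 1.77, 3.99 and 0 CPM in EHE17, and the liver and kidney factor Hnf4a followed Umod at 1.13, 4.52 and 0 CPM in EHE6 and 4.06, 1.28 and 0 CPM in EHE17. Snap25, a synaptic gene, was at 14.6, 16.9 and 0.0217 CPM in EHE6 and 14.8, 9.83 and 0 CPM in EHE17. Ncam1 and Nefl were the shared higher neural genes, at 1.40 and 1.67 and at 2.11 and 1.74.

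Hippo output, which TAZ fusions engage, was mixed. Of 26 YAP/TAZ-TEAD targets, 5 were shared lower and none shared higher, against 14.3% and 4.99% of all tested genes. Among genes with a mean of at least 10 CPM these shares were 3.95% and 4.91%. The median level of this list lay between 72.7 and 116 CPM by library. The medians were -0.02 and -0.17. Ccn2, the connective tissue growth factor, was at 53.2, 87 and 1.21 CPM in EHE6 and 62, 50.8 and 1.87 CPM in EHE17 (log2 fold change -5.35 ± 0.45), and Ccn1 at 145, 176 and 74.7 CPM in EHE6 and 183, 252 and 100.3 CPM in EHE17. Both were lower in replicate 3 of both lines. Igfbp3 had shifts of -3.77 and -1.67, and Nuak2 -1.42 and -2.00. Fjx1 was under 1 CPM in all libraries. Axl, a receptor kinase among these targets, was at 23.2, 23.4 and 1055 CPM in EHE6 and 22.2, 10.4 and 6.86 CPM in EHE17 (difference -6.75 ± 0.77, edgeR adjusted p = 0.0134). The fusion partner genes had small shifts, with 0.32 and -0.43 for Wwtr1 and -0.48 and -0.45 for Camta1.

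Growth factor signalling readouts were described from 3 further lists. Over all tested genes 14.3% were shared lower and 4.99% shared higher. Among genes with a mean of at least 10 CPM the shares were 3.95% and 4.91%. The counts in these lists are to be read beside both. Of 23 immediate early genes, 5 were shared lower and 1 shared higher (medians -0.17 and -0.74). Egr1, the serum response gene, was at 122, 179 and 24.1 CPM in EHE6 and 109, 160 and 21.1 CPM in EHE17, and Fos had shifts of -1.62 and -1.93. Fosl1 was the shared higher member with 2.10 and 1.19. Of 17 MAPK output genes, Fosl1 was shared higher and Dusp6, the ERK phosphatase, shared lower at 219, 255 and 88.4 CPM in EHE6 and 451, 490.2 and 188 CPM in EHE17 (medians 0.55 and 0.16). Of 18 TGF-beta response genes, 1 was shared higher and 3 shared lower (0.27 and -0.06). Bambi, a decoy receptor, had -2.30 and -2.87, Pmepa1 -2.62 and -1.38, the ligand Tgfb1 -2.07 and -1.30, and Id2, an inhibitor of bHLH factors, 2.98 and 1.32.

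Among stress lists, 2 of 22 p53 targets were shared higher and 1 shared lower (medians -0.34 and 0.29). Gdf15, a stress cytokine, was at 7.76, 11.1 and 52.6 CPM in EHE6 and 4.93, 12.3 and 102 CPM in EHE17, and Ephx1, an epoxide hydrolase, at 91.8, 87.1 and 604 CPM in EHE6 and 54.4, 90.6 and 322 CPM in EHE17. Both were above all other libraries in replicate 3. Of 21 ER stress and ATF4 targets, the serine synthesis genes Psat1 (1.77 and 1.56) and Phgdh (1.48 and 1.68) were shared higher and Atf3 (-1.19 and -2.02) shared lower (medians 0.18 and 0.57). Of 29 hypoxia and glycolysis genes, Adm (-5.41 and -1.65) and Aldoc (-4.83 and -2.70) were shared lower (medians -0.91 and 0.09). Of 23 cholesterol synthesis genes, Insig1, the sterol sensor partner, was shared higher at 1.55 and 1.70 (medians 0.53 and 0.48). Of 13 mitochondrially encoded genes, 4 were shared lower (medians -1.31 and -0.92), among them mt-Co1, a cytochrome oxidase subunit, at 8284, 9901 and 3394 CPM in EHE6 and 8011, 9167 and 3546 CPM in EHE17. No member of the lysosome list (26 genes, medians -0.25 and 0.07) or the ribosome biogenesis list (22 genes, -0.50 and -0.11) was in the shared group.

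Of 29 interferon response genes, 17 were higher by at least 1 in EHE6 and 3 in EHE17, against 15.0% and 9.53% of all genes, and 3 were shared higher and 2 shared lower (medians 1.37 and -0.23). No difference between the lines was called among the 29 by edgeR, 12 had an unadjusted p under 0.05, and DESeq2 called 6. Ifit2, an antiviral effector, was at 8.66, 7.24 and 109 CPM in EHE6 and 9.96, 7.33 and 35 CPM in EHE17. Herc6 had 2.15 and 1.5, Usp18, a brake on interferon signalling, 1.88 and 1.44, and Gbp2, a GTPase, -3.53 and -1.42. Of 14 MHC class I genes, H2-D1 was shared higher at 148, 111 and 261 CPM in EHE6 and 267, 361 and 736 CPM in EHE17 (medians 0.14 and 0.70). Reads of class I genes can be split between near-identical copies, so this value is uncertain. Of 20 cytokine and NF-kB genes, 1 was shared higher and 3 shared lower (0.26 and -0.72), against 4.99% and 14.3% of all tested genes. Relb was at -1.60 and -1.40 and Ptgs2, a prostaglandin synthase, at 1.76 and 1.12. Csf3 and Tnf were both lower, and both were under 1 CPM in EHE6. Of 12 leukocyte genes, Cd68, a lysosomal glycoprotein of macrophages, was shared higher at 1.01 and 2.61 (medians 1.0 and -0.11), and the pan-leukocyte gene Ptprc did not enter the shared group.

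Of 18 imprinted genes, 7 were shared lower and none shared higher (medians -2.57 and -1.17). The noncoding genes Meg3 and Rian are transcribed from the same imprinted cluster on chromosome 12. Meg3 was at 22.4, 61.6 and 0 CPM in EHE6 and 193, 27.3 and 0.0406 CPM in EHE17, and Rian at 19.6, 29.9 and 0.0217 CPM in EHE6 and 116, 32.3 and 0 CPM in EHE17. In both genes replicate 3 held at most 2 counts. Ndn, necdin, was at 52.5, 41.7 and 0.217 CPM in EHE6 and 58.3, 84.5 and 0.325 CPM in EHE17, and Peg10, a retrotransposon-derived gene, at 113, 132 and 11.9 CPM in EHE6 and 22.3, 28.4 and 0 CPM in EHE17. Dlk1, from the same cluster as Meg3, went in opposite directions, at 0.285, 0.826 and 12.8 CPM in EHE6 and 27.6, 19.2 and 0.0609 CPM in EHE17 (difference -13.07 ± 1.26, edgeR adjusted p = 0.0128). Of 21 Hox genes, Hoxa7 was shared higher at 5.25 and 1.29 and Hoxb9 shared lower while under 2 CPM throughout (medians 1.25 and -0.16). Of 13 WNT targets, 3 were shared lower (-0.02 and -0.91), against 14.3% of all tested genes. These were Apcdd1, a WNT inhibitor, at -1.81 and -1.77 and the secreted inhibitors Sfrp1 and Sfrp2, under 3 CPM in every library.

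**Figure D4:**
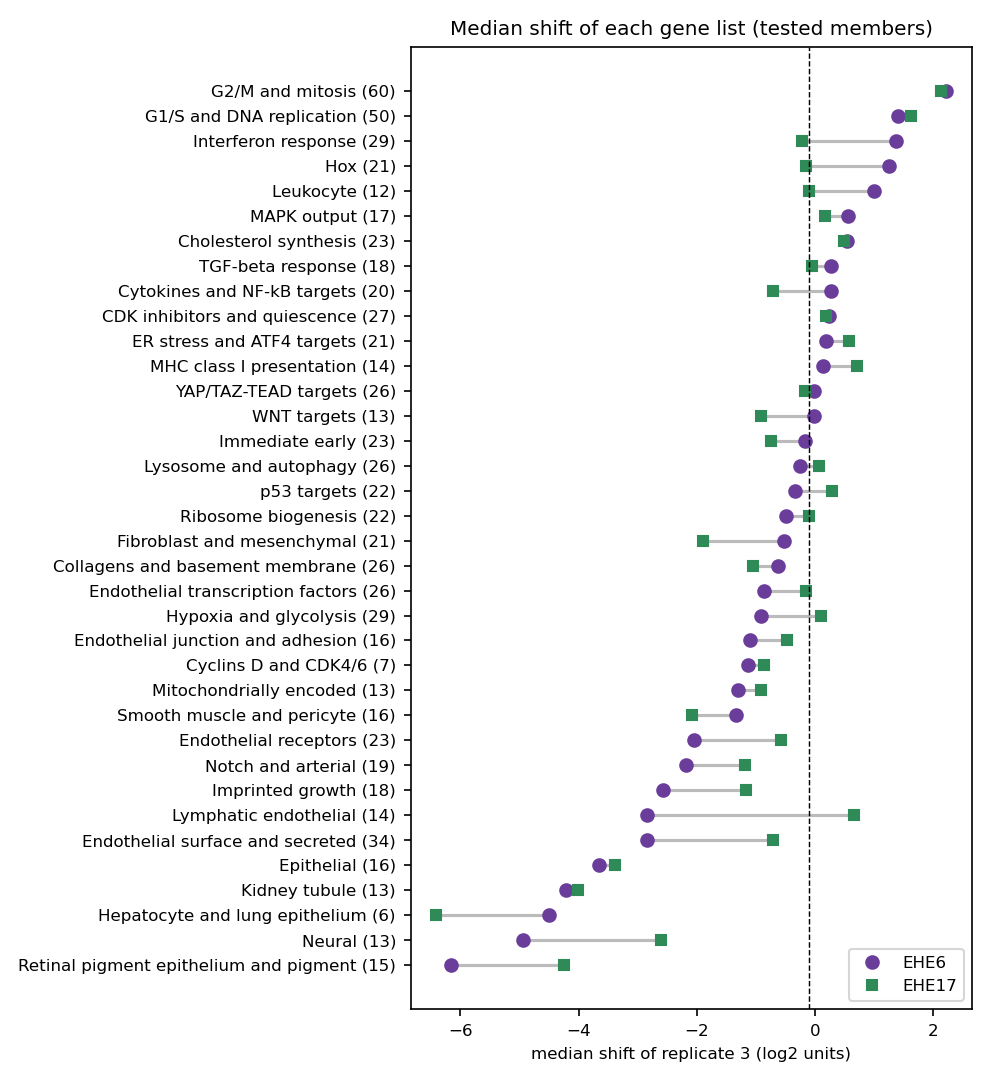
Median shift of replicate 3 in log2 units (x axis) for the tested members of each of 36 gene lists (y axis, number of genes in brackets), with EHE6 as circles and EHE17 as squares, and a dashed line at -0.10, the EHE6 median over all genes. The cell cycle lists lie to the right with both lines close together, while the lymphatic list lies at -2.84 in EHE6 and 0.65 in EHE17.

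Among shared higher genes with at least 10 CPM in replicate 3 of both lines, predicted genes left out, the 8 with the widest shift, ranked by the smaller of the lines' shifts, were in neither cell cycle list. Clic5, which encodes an intracellular chloride channel family protein, lies at chr17:44188584-44280172 (mm10) and was at 1.17, 2.83 and 189 CPM in EHE6 and 6.18, 4.06 and 293 CPM in EHE17, a log2 fold change of 6.21 ± 0.43. Pax1, a paired box factor of the axial skeleton and pharyngeal pouches at chr2:147361925-147393295 (mm10), was at 1.32, 1.04 and 494 CPM in EHE6 and 5.33, 4.18 and 79.98 CPM in EHE17. It was also called for the difference between lines, by -4.64 ± 0.52 (edgeR adjusted p = 0.0131). Plce1, a phospholipase C, was at 1.09, 1.64 and 26.3 CPM in EHE6 and 11.1, 3.27 and 101 CPM in EHE17. Cldn15, a claudin, was at 0.612, 0.504 and 12.8 CPM in EHE6 and 0.448, 0.158 and 12.4 CPM in EHE17, and Adamtsl3, a matrix protein gene, at 1.63, 2.04 and 143 CPM in EHE6 and 1.24, 0.554 and 15.6 CPM in EHE17. In all 5, replicate 3 of each line lay above all 4 libraries numbered 1 or 2. Lmo1, a LIM-domain cofactor, had shifts of 3.61 and 3.53, Pmp22, a membrane protein of the growth arrest family, 3.47 and 3.62, and Dock11, a Cdc42 activator, 4.76 and 3.46.

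By the same ranking, with at least 10 CPM over replicates 1 and 2 of both lines, the widest shared downward shifts were of genes at or near 0 counts in replicate 3. Kap, a kidney androgen-regulated gene, was at 27.9, 114 and 0 CPM in EHE6 and 80.6, 23.3 and 0 CPM in EHE17, at least 1100-fold lower in replicate 3 of EHE6 and at least 853-fold lower in EHE17. Acsm2, an acyl-CoA synthetase of kidney, was at 8.02, 34.6 and 0 CPM in EHE6 and 26.4, 7.26 and 0 CPM in EHE17, and it followed Kap in being higher in EHE6 replicate 2 and EHE17 replicate 1. Ttr, transthyretin, was at 16.7, 26.3 and 0 CPM in EHE6 and 17.2, 11.6 and 0 CPM in EHE17. Mycl, another member of the Myc family, was at 35.8, 13.9 and 0.0217 CPM in EHE6 and 14, 40.5 and 0 CPM in EHE17. It was higher in EHE6 replicate 1 and EHE17 replicate 2 than in EHE6 replicate 2 and EHE17 replicate 1. Rgr, Meg3 and Rian, given above, also belong to this group.

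The shift differed between the lines in 723 genes (3.82%), 465 more positive in EHE17 (2.46%) and 258 more negative (1.36%), by the edgeR interaction test at an adjusted p under 0.05 and a difference of at least 1. The number moved to 1352 without EHE17 replicate 1, 1429 with DESeq2, 1591 without the low-count filter, 475 with all 8 libraries in the fit and 3593 with the crossed replicate block. The test rests on 2 residual degrees of freedom, from replicates 1 and 2 of each line, so the lone replicate 3 of each line was assumed to vary like them. In 591 of the 723 the shift was larger in EHE6 and in 132 larger in EHE17. In 130 the gene was higher by at least 1 in EHE6 and lower by at least 1 in EHE17, and in 90 the reverse, while such opposite shifts, called or not, stood in 1.74% and 1.31% of all genes. The shared group held 105 of the 723, while of all genes 4.99% were shared higher and 14.3% shared lower. Among genes with opposite shifts, picked here after their values were seen, Elavl4, a neuronal RNA-binding protein gene, was at 3.7, 4.05 and 0 CPM in EHE6 and 2.91, 1.9 and 26.8 CPM in EHE17, with 0 counts in EHE6 replicate 3. Krt18 was at 7.07, 4.27 and 91.9 CPM in EHE6 and 5.86, 8.01 and 0.589 CPM in EHE17 (difference -7.57 ± 0.73, edgeR adjusted p = 0.0128). Sgce, an imprinted neighbour of Peg10, was at 55.9, 65 and 186 CPM in EHE6 and 28.7, 36.5 and 0.507 CPM in EHE17 (difference -7.62 ± 0.57, edgeR adjusted p = 0.0128). Fabp4, a fatty acid binding protein, was lower in replicate 3 of EHE6 and higher in that of EHE17, with shifts of -4.52 and 2.49 (edgeR adjusted p = 0.0183).

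A gene was placed in 1 line where the interaction was called, the shift was at least 1 in that line with replicate 3 outside the others, and it was under 0.5 in size in the other line. This held for 37 genes higher in EHE6 (0.196%), 146 lower in EHE6 (0.772%), 3 higher in EHE17 (0.0159%) and 16 lower in EHE17 (0.0846%). Of those higher in replicate 3 of EHE6, the 6 with the largest shift and at least 10 CPM on the higher side, predicted genes left out, are given first. Prrx1, a mesenchymal homeobox factor, was at 0.476, 0.49 and 41 CPM in EHE6 and 0.224, 0.588 and 0.284 CPM in EHE17 (difference -6.92 ± 0.95, edgeR adjusted p = 0.019). Bmpr1a, a BMP receptor, was at 2.15, 2.24 and 131 CPM in EHE6 and 2.05, 1.48 and 2.07 CPM in EHE17 (edgeR adjusted p = 0.0128). The keratins Krt19 and Krt13 were at 0.149, 0.392 and 15.2 CPM and 0.978, 0.924 and 42.6 CPM in EHE6 and under 1 CPM in EHE17. Itgb4, the integrin of hemidesmosomes, was at 1.2, 1.36 and 57 CPM in EHE6 and 3.98, 6.4 and 4.75 CPM in EHE17, and Rasl11a, a small GTPase, at 0.652, 0.252 and 20.8 CPM in EHE6 and 0.274, 0.385 and 0.447 CPM in EHE17. In all 6 the EHE6 replicate 3 library was the highest of the 6 libraries.

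By the same ranking, the 6 largest shifts lower in replicate 3 of EHE6 alone follow. Ephb1, an ephrin receptor, was at 12.8, 16.7 and 0 CPM in EHE6, at least 227-fold lower in replicate 3, and at 4.14, 12.3 and 7.87 CPM in EHE17. Kazn, a junctional protein gene, was at 11.2, 11.1 and 0 CPM in EHE6, at least 172-fold lower in replicate 3, and at 9.01, 7.19 and 5.8 CPM in EHE17. Scn3b, a sodium channel subunit, was at 57, 58.4 and 0.26 CPM in EHE6 and 65.8, 103 and 63.4 CPM in EHE17 (difference 7.37 ± 0.66, edgeR adjusted p = 0.0128). Fam174b was at 148, 129 and 0.996 CPM in EHE6 and 218, 282 and 191 CPM in EHE17 (edgeR adjusted p = 0.0128), and Slc18a1, a vesicular monoamine transporter, had shifts of -7.32 and -0.16 and Ston2, an endocytic adaptor, -7.06 and -0.49. In each of these the EHE6 replicate 3 value was below 1 CPM, and the EHE17 shift lay between -0.49 and 0.14.

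In EHE17 the 1-line genes were few. Alpl, alkaline phosphatase, was at 3.75, 4.02 and 4.31 CPM in EHE6 and 3.06, 4.36 and 96.4 CPM in EHE17 (difference 4.55 ± 0.55, edgeR adjusted p = 0.0148). Thbs2, a matrix thrombospondin, was at 1.45, 1.05 and 1.04 CPM in EHE6 and 2.87, 2.25 and 51.9 CPM in EHE17, and Slc7a3, a cationic amino acid transporter, at 4.96, 4.38 and 3.49 CPM in EHE6 and 2.1, 3.09 and 19.9 CPM in EHE17. These were the 3 higher genes. Among the 16 lower ones, Selp, P-selectin, was at 242, 307 and 231 CPM in EHE6 and 240.1, 221 and 35.9 CPM in EHE17 (difference -2.43 ± 0.47, edgeR adjusted p = 0.0491). Mmp23, a metalloproteinase, was at 67, 53.1 and 64.1 CPM in EHE6 and 18.1, 25.4 and 1.87 CPM in EHE17, Slc38a4, an amino acid transporter, at 0.272, 0.476 and 0.39 CPM in EHE6 and 17.8, 12 and 0.243 CPM in EHE17, and Srrm4, a splicing factor of neurons, at 4.39, 6.65 and 6.48 CPM in EHE6 and 14.8, 8.27 and 0.325 CPM in EHE17. For Mmp23, Slc38a4 and Srrm4, EHE6 replicate 3 lay between the other EHE6 libraries. Counts of 1-line genes moved by over 1.5 times when single libraries were left out, to 94 higher genes in EHE6 and 31 in EHE17 without EHE17 replicate 1.

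**Figure D5:**
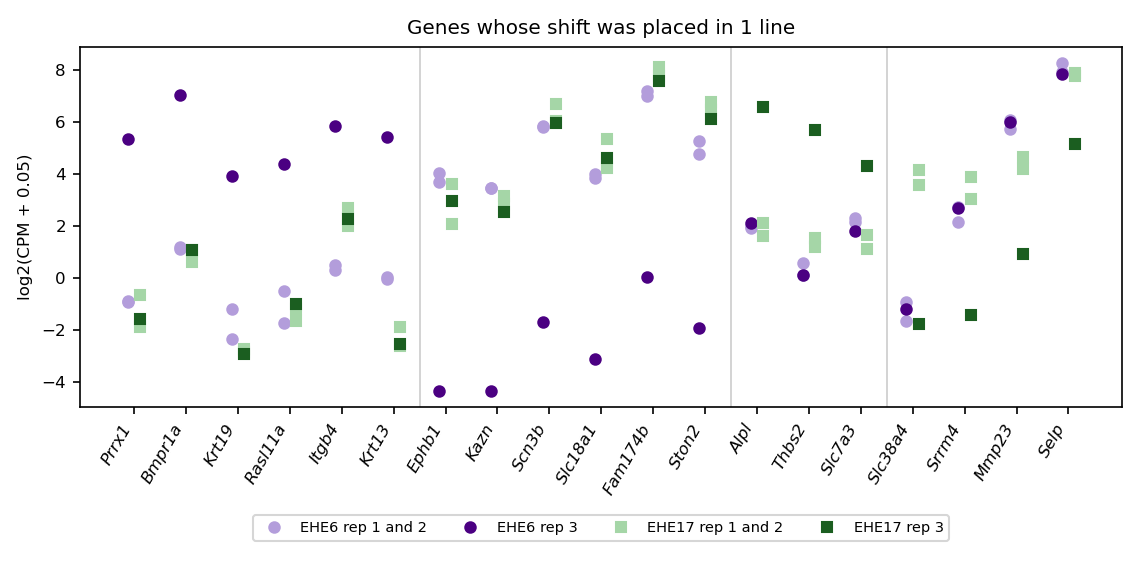
Level in log2(CPM + 0.05) (y axis) of the 19 named 1-line genes (x axis), with EHE6 as circles, EHE17 as squares and replicate 3 in the dark shade; grey lines separate EHE6 higher, EHE6 lower, EHE17 higher and EHE17 lower. In each block 1 dark symbol stands apart from the pale ones of its line, and Ephb1 and Kazn lie at the bottom, with 0 counts in EHE6 replicate 3.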

How the data were processed

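RNA from 8 libraries was counted per gene, and the counts used here are the whole-number counts per gene that the authors deposited, with no normalization. Per the submitters' processing notes, HISAT2 and the mm10 build were used, and the counting tool is not given in the sources used here. Of 55401 gene identifiers, 55141 matched GENCODE M21, which gave symbols and coordinates. The comparison took 6 libraries by the line and replicate number of their labels. EHE26 was left out.

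Levels are CPM after TMM scaling in edgeR 4.0.16 (R 4.3.3), and log2 CPM used a prior count of 2. Genes were tested where at least 2 libraries reached the CPM of 10 counts in the median library and the total was at least 15, which left 18904. Shifts are described without a p-value, with a log2 fold change from a fit with the line as a block. Each SE, also that of a difference between lines, was worked back from the fit's quasi-likelihood F statistic. It is the absolute log2 value divided by the square root of F. The difference between lines was tested with edgeR's quasi-likelihood interaction test on 4 means and 2 residual degrees of freedom, Benjamini-Hochberg adjusted over all genes. The difference printed is the log2 coefficient of that fit, so it need not equal 1 shift minus the other. The steps were tested on simulated data. Alternatives were other scalings, filters, folds, DESeq2 1.42.0, all 8 libraries, a replicate block and each replicate left out. No p-value separates cultures from technical repeats, since the labels do not say which the replicates are.

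Members and gene lists were chosen with earlier results of these data known. Genes named were up to 8 per direction for shared shifts and up to 6 per direction and line for 1-line shifts, with at least 10 CPM on the higher side and predicted genes left out. To these were added up to 4 shared members per list and a set list of cell cycle, endothelial, Hippo and line marker genes. Any other gene named was picked after its values were seen. 1 gene that this rule names is not reported here.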

Additional observations from a re-analysis of the deposited data

Results flagged for a closer look

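The 19 genes named for a shift in 1 line were placed there by a call of the edgeR interaction test. A difference of at least 1 that passed this test was thus a condition of naming and not a separate result. Each difference rests on 1 replicate 3 library a line, chosen for standing apart. All differences are EHE17 minus EHE6 in log2 units. For genes higher in EHE6 replicate 3 the difference was -6.92 for Prrx1, -5.67 for Bmpr1a, -6.02 for Krt19, -5.08 for Rasl11a, -5.61 for Itgb4 and -5.94 for Krt13. For genes lower in EHE6 replicate 3 it was 12.91 for Ephb1, 12.09 for Kazn, 7.37 for Scn3b, 7.55 for Slc18a1, 6.73 for Fam174b and 6.75 for Ston2. These differences are coefficients of the test's fit, which did not use the prior count of 2 of the shifts. For Ephb1 and Kazn, EHE6 replicate 3 had no counts, so the size of the difference depends on the prior count. Their shifts were -8.96 and -8.57 in EHE6 and 0.14 and -0.47 in EHE17. For genes higher in EHE17 replicate 3 it was 4.55 for Alpl, 4.61 for Thbs2 and 3.36 for Slc7a3. For genes lower in EHE17 replicate 3 it was -5.98 for Slc38a4, -5.38 for Srrm4, -3.64 for Mmp23 and -2.43 for Selp.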

How the results depend on the processing

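Counts by 1-line group are given in the order EHE6 higher, EHE6 lower, EHE17 higher, EHE17 lower, and counts of differences between lines as more positive and more negative in EHE17. Leaving out single replicates gave 919 to 1068 shared higher and 2488 to 2679 shared lower genes, 605 to 841 and 330 to 511 differences, and 44 to 94, 179 to 217, 5 to 31 and 21 to 40 1-line genes. The highest EHE17 higher count, 31, and the 841 and 511 differences came without EHE17 replicate 1. Shared lower mural genes numbered 5 to 8, with 5 without EHE17 replicate 2. At a fold threshold of 2, 196 and 1584 genes were shared higher and lower. Without the low-count filter there were 956 and 635 differences and 115, 273, 13 and 50 1-line genes. DESeq2 gave 864 and 565, and 116, 275, 17 and 42. With all 8 libraries in the fit, 276 differences were more positive, 86 1-line genes were EHE6 lower and 6 EHE17 lower. Total count scaling gave 24 EHE6 higher and 9 EHE17 lower genes. Among genes with a mean of at least 10 CPM, an alternative chosen after seeing the data, there were 463 and 372 shared genes, 267 and 95 differences, and 17, 97 and 3 genes that were EHE6 higher, EHE6 lower and EHE17 lower. Of 209 values for the named 1-line genes under these alternatives, 17 no longer passed the adjusted threshold, and none of the results tried changed direction. The cause of these moves was not tested.

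The replicate number separates replicate 3 from the others, so a replicate block could be fitted only for the difference between lines, with 1 residual degree of freedom. With the replicate block 870 differences were called, 673 of them among the 723, and 6 genes were EHE17 higher. Replicate 1 minus replicate 2 correlated at -0.62 across genes between the lines, so equal numbers do not pair the libraries. A crossed replicate block, chosen after seeing the data, gave 1988 and 1605 differences and 413, 646, 96 and 186 1-line genes. In the shared lower group 1315 genes had at most 3 counts in both replicate 3 libraries, and the part that depth plays in this was not tested.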

Other observations

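The 2 EHE26 libraries took no part in the comparison. Their levels lay near those of replicate 3 for some named genes and near those of replicates 1 and 2 for others. In CPM scaled over all 8 libraries, Clic5 was at 129 and 271 CPM in EHE26 replicates 1 and 2, Pax1 at 196 and 501 CPM, Rasl11a at 18.2 and 45.3 CPM and Prrx1 at 13.2 and 19.8 CPM. Top2a was at 307 and 351 CPM, Mki67 at 226 and 183 CPM and Ccnb1 at 127 and 122 CPM. Kap, Rgr, Ttr and Ephb1 had no counts in either library, Kazn was at 0.055 and 0.044 CPM, and Meg3 at 2.61 and 0.79 CPM. Of the endothelial genes, Cdh5 was at 1960 and 2033 CPM, Pecam1 at 1401 and 1295 CPM and Kdr at 102 and 46.2 CPM. Ccn2 was at 2.45 and 0.943 CPM. On the same scale Cldn15 was at 0.386 and 0.219 CPM in EHE26, against 12.4 and 12.3 CPM in replicate 3 of EHE6 and EHE17 and at most 0.606 CPM in the other 4 libraries. Krt13 was at 0.975 and 5.97 CPM, against 41.4 CPM in EHE6 replicate 3. Ccnd2 was at 478 and 328 CPM, against 134 and 152 CPM in replicate 3. Alpl was at 2.63 and 1.01 CPM, against 95.3 CPM in EHE17 replicate 3, and Selp at 178 and 437 CPM, against 35.5 CPM there. EHE26 is another line, so these values cannot separate line from library.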
